A study of Sus scrofa with 8 samples.

Results

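Calmodulin, the Ca2+/calmodulin-dependent protein kinase CaMKII, and the phosphatase calcineurin read the calcium signal of ventricular myocytes. The genes described here are CALM2, CALM3, CAMK2D, CAMK2G, PPP3CA, PPP3CB, RCAN1 and NFATC2, a list of symbols of which all 8 were found among the 14718 genes of the deposited table. All 8 passed the filter on low values, and 11660 genes in all were tested. The measurement was RNA from the left ventricle of 8 pigs. The mutant group had 4 pigs, of which 3 (replicates 1 to 3) were labelled with a mutation of KCNH2 and 1 (replicate 4) with a mutation of KCNH3, although the series design speaks of KCNH2 alone. The WT group had 4 pigs labelled wild type. KCNH2 encodes the hERG potassium channel, whose loss lengthens the QT interval, and the study models long QT syndrome. The kind of edit, whether 1 or both alleles carried it, and the strain, sex, age and any treatment of the pigs were not stated in the labels. Nothing states whether mutant pigs were clones of 1 edited cell, so p-values measure only the spread between these samples.

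In the myocyte, calcium that enters with each action potential binds calmodulin, which then switches on CaMKII and calcineurin. CaMKII phosphorylates calcium channels, the ryanodine receptor and phospholamban, and sustained activity of the kinase is linked to arrhythmia and hypertrophy. Calcineurin removes phosphate from NFAT transcription factors, which move to the nucleus and drive growth genes, among them RCAN1, whose product in turn inhibits calcineurin. Mutations of calmodulin genes are themselves a cause of long QT syndrome in humans.

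No gene of the list differed between mutant and WT ventricles beyond the spread between pigs. In limma with Benjamini-Hochberg adjustment over all genes, 0 of the 8 were called, as were 0 of 11660 genes tested (0%). At an unadjusted p under 0.05 the list again had 0, against 1616 of all genes (13.9%). Without WT replicate 4 the list had 3 at that level, namely CALM2, CAMK2G and PPP3CA, against 1686 of 11660 genes (14.5%), and still 0 after adjustment. The authors' deposited table calls 0 of the 8, against 580 of 12763 genes with an adjusted p (4.54%). On reads recovered from the table, DESeq2 called 0 of the 8, against 4.56% of all genes, and edgeR called 0 of the 8 and 0 of 11878 genes. For 0 of the 8 did all mutant values lie on one side of all WT values, against 1328 of 11660 genes (11.4%). Log2 differences, mutant minus WT, were above 0 for 6 genes of the list and below 0 for 2, with a median of 0.27, where 56.9% of all genes were above 0 and the median over all genes was 0.12. With 8 libraries an exact permutation test has 70 assignments and cannot give a p below 0.0286.

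Several libraries stood apart, and the values below have to be read with them. Libraries held 15.9 to 22.4 M reads (M, mega), but the 13 mitochondrially encoded genes took 27.5%, 19.9%, 16.7% and 15.9% of them in mutant replicates 1 to 4, against 33.5%, 31.7%, 87.9% and 65.2% in WT replicates 1 to 4. Reads of nuclear genes were 12.7 to 16.2 M in mutant libraries, against 12.9, 11.5, 2.54 and 7.53 M in WT replicates 1 to 4. In WT replicate 3, 1 read was therefore worth 4.84 normalized counts, compared with 0.611 to 1.21 in the others. The closest pair was mutant replicates 3 and 4, with a Spearman's rho across genes of 0.991. Its chi-square per gene was 14.2, against 61.7 for the next closest pair within a group, which does not show whether the libraries came from separate animals. They were kept as separate samples because their titles carry different pig numbers. KCNH2 itself had 798, 1762, 1751 and 1839 normalized counts in mutant replicates 1 to 4 and 989, 559, 1909 and 148 in WT replicates 1 to 4, which overlapped (exact two-sided permutation p = 0.257). A gene count does not show the edit. Cardiomyocyte markers were abundant in all 8 libraries, with MYL2, a ventricular myosin light chain, at 50350 to 108400 normalized counts in mutant and 42170 to 75120 in WT libraries, but ACTC1, the cardiac actin gene, was at 1752 in WT replicate 4 against 32210 to 234500 in the other libraries of both groups.

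**Figure D1:**
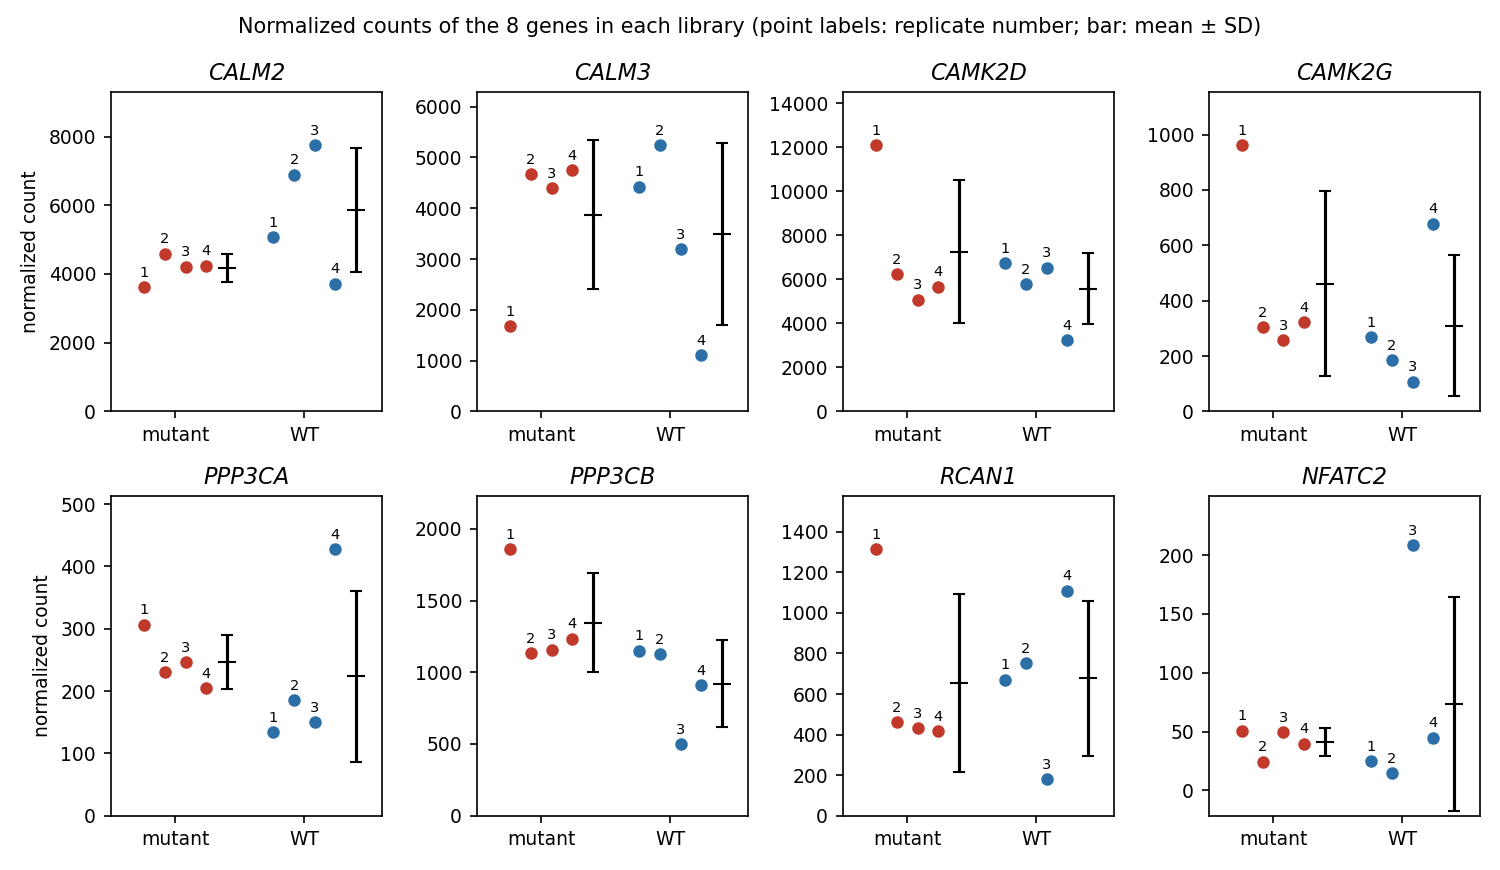
Normalized counts (y axis, linear) of the 8 genes in the 4 mutant and 4 WT libraries, each point labelled with its replicate number, with the mean ± SD beside each group. Mutant replicate 1 is the highest mutant library for CAMK2D, CAMK2G, PPP3CA, PPP3CB, RCAN1 and NFATC2 and the lowest for CALM2 and CALM3, and every pair of groups overlaps.

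A normalized count is the number of reads of a gene divided by the size factor of its library. It compares 1 gene across libraries. Transcript lengths were not used, so levels of different genes are not ranked.

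CALM2 and CALM3 are separate genes that in mammals encode the same calmodulin protein. Reads that fit both or a processed copy could be split between them by the counting, which is not described, so their values are uncertain to that extent. CALM2 had 3616, 4588, 4213 and 4246 normalized counts in mutant replicates 1 to 4 and 5071, 6886, 7746 and 3714 in WT replicates 1 to 4. Of the WT libraries 3 lay above every mutant library, and WT replicate 4 lay below 3 of the 4. The means were 4166 ± 404 in mutant and 5854 ± 1811 in WT libraries (SD, n = 4 each), a log2 difference of -0.44 ± 0.28 (SE; 95% interval -1.06 to 0.18; limma adjusted p = 0.479; exact two-sided permutation p = 0.171). CALM2 was thus the only gene of the list apart from NFATC2 with a difference below 0. Left out singly, WT replicates 4 and 3 gave differences of -0.64 and -0.29, and the value stayed below 0 with each single library left out.

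CALM3 had 1681, 4674, 4390 and 4744 normalized counts in mutant replicates 1 to 4 and 4421, 5241, 3193 and 1108 in WT replicates 1 to 4. The low values were thus mutant replicate 1 and WT replicate 4, 1 library of each group, and the others lay between 3193 and 5241. The means were 3872 ± 1469 in mutant and 3491 ± 1798 in WT libraries (SD, n = 4 each), a log2 difference of 0.25 ± 0.53 (SE; 95% interval -0.93 to 1.43; limma adjusted p = 0.836; exact two-sided permutation p = 0.657). The sign depended on a single library, since the difference was 0.61 without mutant replicate 1 and -0.23 without WT replicate 4. On the recovered reads it was 0.16 in edgeR and 0.15 in DESeq2.

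CaMKII is assembled from subunits of 4 genes, of which CAMK2D gives the main isoform of the heart and CAMK2G a second one. CAMK2D had 12083, 6219, 5071 and 5661 normalized counts in mutant replicates 1 to 4 and 6725, 5786, 6530 and 3232 in WT replicates 1 to 4. Mutant replicate 1 lay far above every other mutant library, and mutant replicates 2 to 4 lay within the WT range. The means were 7259 ± 3250 in mutant and 5568 ± 1609 in WT libraries (SD, n = 4 each), a log2 difference of 0.35 ± 0.36 (SE; 95% interval -0.45 to 1.15; limma adjusted p = 0.652; exact two-sided permutation p = 0.543). Without mutant replicate 1 it was 0.07.

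CAMK2G had 962, 304, 257 and 322 normalized counts in mutant replicates 1 to 4 and 269, 184, 107 and 678 in WT replicates 1 to 4. Its 2 high libraries, mutant replicate 1 and WT replicate 4, belong to different groups. The lowest, WT replicate 3, rests on 22 reads. The log2 difference was 0.69 ± 0.59 (SE; 95% interval -0.64 to 2.01; limma adjusted p = 0.591; exact two-sided permutation p = 0.343). It was 0.26 without mutant replicate 1 and 1.18 without WT replicate 4, still above 0.

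The other CaMKII genes are known mainly from brain (CAMK2A) and from brain and skeletal muscle (CAMK2B). Reads were nevertheless assigned to CAMK2A in every ventricle, with 6343, 3415, 3137 and 3489 normalized counts in mutant replicates 1 to 4 and 4922, 5195, 4457 and 3695 in WT replicates 1 to 4. Apart from mutant replicate 1, the mutant libraries lay below every WT library, and the log2 difference was -0.21 ± 0.28 (SE; limma adjusted p = 0.736). CAMK2B had 599, 231, 141 and 219 normalized counts in mutant replicates 1 to 4, and 77.1, 236, 199 and 288 in WT replicates 1 to 4 (log2 difference 0.51 ± 0.53 (SE); limma adjusted p = 0.657). Mutant replicate 1 was the highest of all 8 libraries for each of the 4 CaMKII genes.

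**Figure D2:**
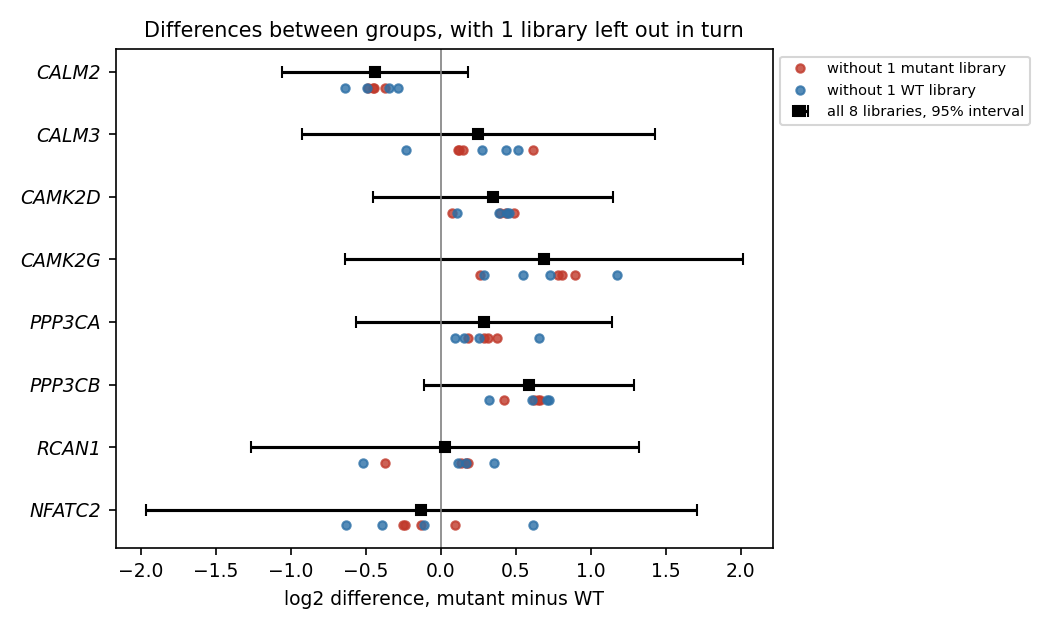
Log2 difference of each gene, mutant minus WT (x axis), as black squares with 95% intervals from limma over all 8 libraries, and below them the difference with 1 mutant (red) or 1 WT (blue) library left out. Every interval includes 0, and the sign of CALM3, RCAN1 and NFATC2 changes with the library left out.

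Calcineurin pairs a catalytic subunit, encoded by PPP3CA, PPP3CB or PPP3CC, with a regulatory subunit, in the heart from PPP3R1. PPP3CB came nearest to a separation of the groups. It had 1856, 1133, 1158 and 1235 normalized counts in mutant replicates 1 to 4 and 1149, 1126, 499 and 909 in WT replicates 1 to 4. Only WT replicate 1 exceeded a mutant library, lying above mutant replicate 2. The means were 1345 ± 343 in mutant and 921 ± 301 in WT libraries (SD, n = 4 each), a log2 difference of 0.59 ± 0.31 (SE; 95% interval -0.11 to 1.29; limma adjusted p = 0.420; exact two-sided permutation p = 0.0571). WT replicate 3 contributed 103 reads, and without it the difference was 0.32.

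PPP3CA had 307, 230, 246 and 205 normalized counts in mutant replicates 1 to 4 and 134, 185, 150 and 427 in WT replicates 1 to 4. All mutant libraries lay above 3 of the WT libraries and below the remaining one, WT replicate 4. The log2 difference was 0.29 ± 0.38 (SE; 95% interval -0.57 to 1.14; limma adjusted p = 0.729; exact two-sided permutation p = 0.543), and 0.65 without WT replicate 4 (limma adjusted p = 0.327). On the recovered reads it was 0.14 in edgeR and 0.13 in DESeq2.

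Outside the list, the catalytic gene PPP3CC had 1647, 1311, 1066 and 1059 normalized counts in mutant replicates 1 to 4 and 1400, 1914, 2282 and 1171 in WT replicates 1 to 4, a log2 difference of -0.39 ± 0.28 (SE; limma adjusted p = 0.523). The regulatory subunit gene PPP3R1 had 549 to 773 normalized counts in mutant and 373 to 712 in WT libraries (log2 difference 0.10 ± 0.26 (SE); limma adjusted p = 0.867). Of the catalytic genes, PPP3CA and PPP3CB thus had differences above 0 and PPP3CC one below 0, none of them called.

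RCAN1 encodes an inhibitor of calcineurin, and its shorter transcript, made from an internal promoter, is a classical readout of calcineurin and NFAT activity. The table counts the gene as a whole, so that transcript is not seen on its own. RCAN1 had 1313, 462, 431 and 416 normalized counts in mutant replicates 1 to 4 and 671, 752, 179 and 1109 in WT replicates 1 to 4. Mutant replicates 2 to 4 lay close together and below 3 of the WT libraries, while mutant replicate 1 lay above all others. The means were 655 ± 439 in mutant and 678 ± 383 in WT libraries (SD, n = 4 each), a log2 difference of 0.03 ± 0.58 (SE; 95% interval -1.27 to 1.32; limma adjusted p = 0.984; exact two-sided permutation p = 1).

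The lowest RCAN1 value, in WT replicate 3, rests on 37 reads, compared with 603 to 2149 in the other libraries of both groups. The log2 difference was -0.37 without mutant replicate 1 (limma adjusted p = 0.798) and -0.52 without WT replicate 3 (limma adjusted p = 0.584). It was also just below 0 in edgeR (-0.06), in DESeq2 (-0.05) and after quantile rescaling (-0.03), so no direction can be given. Immediate early genes, a list of 25 of which 23 were tested, had scores of -0.32, -0.67, -0.86 and -0.96 in mutant replicates 1 to 4 and 0.73, 1.19, 0.58 and 0.32 in WT replicates 1 to 4. A score is the mean over the tested genes of a list of the log2 value minus its mean over all 8 libraries. Among mutant libraries replicate 1 was the highest for both that score and RCAN1. Among WT libraries the order differed, since replicate 4 had the highest RCAN1 and the lowest score. The part of either in the other was not tested.

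RCAN1, CAMK2G and PPP3CA had their 2 highest libraries in common, mutant replicate 1 and WT replicate 4. Endothelial markers were highest in the same 2 libraries. All 6 of 6 listed endothelial markers were tested and none was at 0, with summed normalized counts of 24330, 15070, 16640 and 15930 in mutant replicates 1 to 4 and 19270, 7893, 7427 and 37140 in WT replicates 1 to 4. Summed fibroblast markers (6 of 6 tested, none at 0), to which collagen genes contribute most, were lowest in these libraries within their groups, at 26330 in mutant replicate 1 against 37460 to 72010 in the other mutant libraries, and at 6560 in WT replicate 4 against 8882 to 115100 in the other WT libraries. The single markers did not all follow the sum. DCN was highest among mutant libraries in replicate 1, at 6431 against 4525 to 5605 normalized counts. In WT replicate 4, DCN and LUM, at 2758 and 998.5 normalized counts, were above WT replicate 2, at 1563 and 545.1. The part of cell makeup in these gene values was not tested. In bulk tissue, fewer cells of a type and less RNA per cell cannot be told apart.

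**Figure D3:**
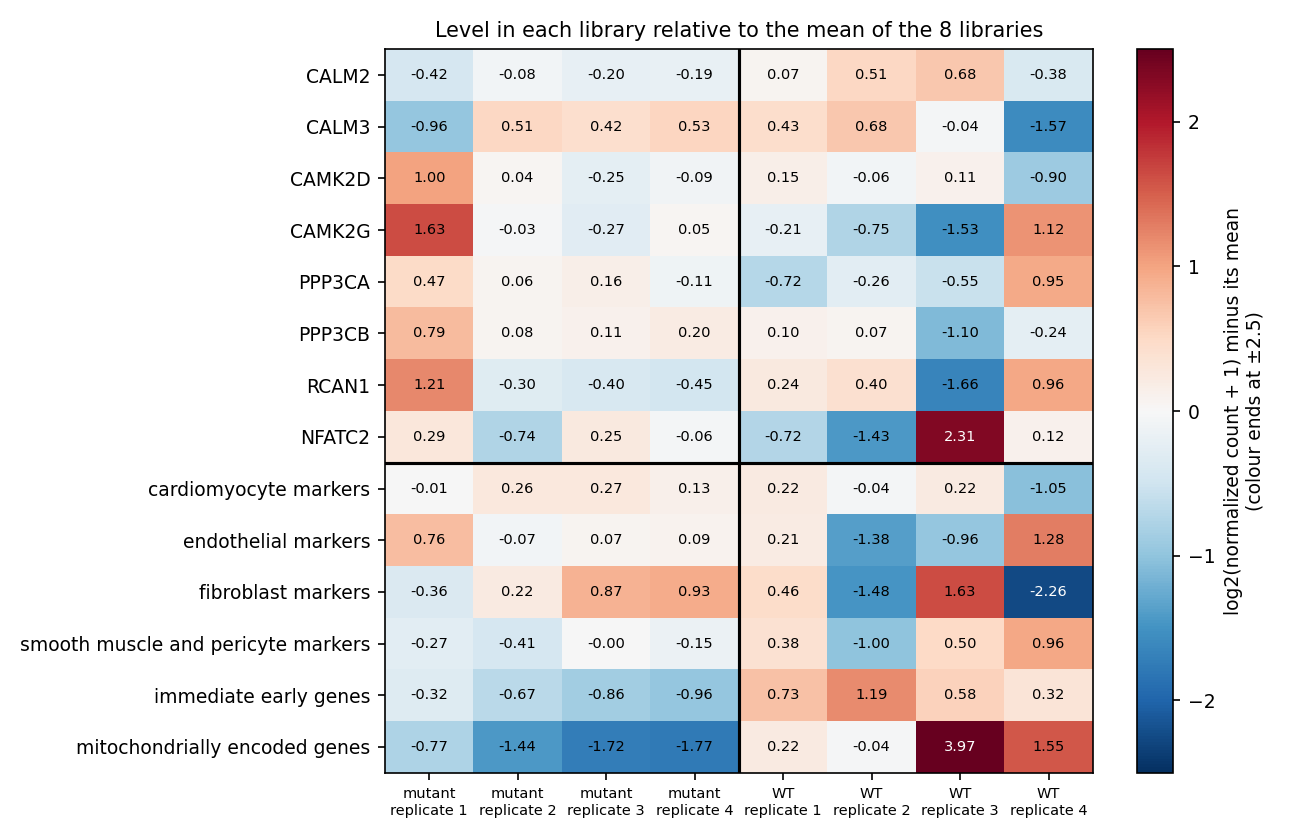
Log2(normalized count + 1) of each gene, and scores of 6 marker or context lists, relative to their mean over the 8 libraries, with mutant libraries left and WT libraries right of the line. Mutant replicate 1 is at 1.63 for CAMK2G and 1.21 for RCAN1 but -0.96 for CALM3, and WT replicate 4 is at 1.12, 0.96 and -1.57 for the same genes.

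NFATC2 encodes a calcineurin-dependent transcription factor best known from T lymphocytes. It was scarce, with 83, 32, 69 and 60 reads in mutant replicates 1 to 4 and 31, 17, 43 and 37 in WT replicates 1 to 4. As normalized counts these were 50.7, 24.3, 49.3 and 39.7 in mutant and 24.6, 14.7, 208 and 44.9 in WT libraries. The high value of WT replicate 3 rests on 43 reads, the most of any WT library, in the library with the most normalized counts per read. The log2 difference was -0.13 ± 0.82 (SE; 95% interval -1.97 to 1.71; limma adjusted p = 0.949; exact two-sided permutation p = 0.914), but 0.61 without WT replicate 3 and 0.09 without mutant replicate 2. On the recovered reads it was -0.74 in edgeR and -0.77 in DESeq2, not called in either. Of 10 lymphocyte markers 9 were in the table and 2, CD4 and LCK, were tested. All 9 markers in the table together summed to 88.1 to 172 normalized counts in mutant and 73.4 to 217 in WT libraries. CD4, which macrophages also carry in some species, had 58.5 to 113 normalized counts in mutant and 4.32 to 103 in WT libraries. The B cell marker MS4A1 did not pass 1 normalized count in any library. In WT replicate 3, where NFATC2 was highest, 6 of the 9 markers, among them CD3D, CD2 and CD8A, were at 0 reads, while CD3E and CD4 had 14 reads each and LCK 12. The part of lymphocytes in the NFATC2 values was not tested.

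The balance between paralogs was compared within each library, which removes the size factor. For CALM2 to CALM3 the log2 ratio of normalized counts was 1.10, -0.03, -0.06 and -0.16 in mutant replicates 1 to 4 and 0.20, 0.39, 1.28 and 1.74 in WT replicates 1 to 4. Mutant replicates 2 to 4 lay below every WT library and mutant replicate 1 lay among them. The means were 0.21 ± 0.60 in mutant and 0.90 ± 0.73 in WT libraries (SD, n = 4 each), a difference of -0.69. It was -0.99 without mutant replicate 1, but only -0.08 without WT replicates 3 and 4 together. No test was made of these ratios, since both genes were chosen with earlier results known.

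For CAMK2D to CAMK2G the log2 ratio was 3.65 to 4.35 in mutant libraries and 4.64, 4.97, 5.92 and 2.25 in WT replicates 1 to 4. The means were 4.11 ± 0.32 in mutant and 4.45 ± 1.56 in WT libraries (SD, n = 4 each). The difference of -0.34 was -1.07 without WT replicate 4, the library with the lowest CAMK2D, and 0.15 without WT replicate 3. For PPP3CA to PPP3CB the log2 ratio was -2.59, -2.29, -2.23 and -2.59 in mutant replicates 1 to 4 and -3.10, -2.60, -1.73 and -1.09 in WT replicates 1 to 4. The mutant values lay inside the WT range. In each of these 3 ratios the WT libraries spread more widely than the mutant ones.

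**Figure D4:**
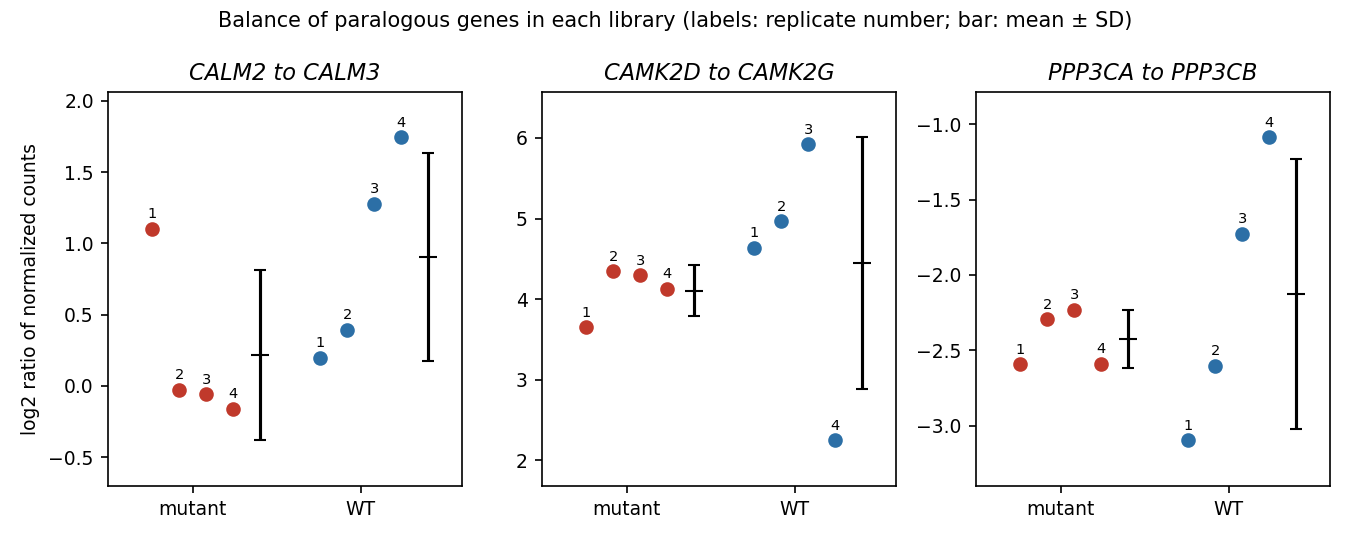
Log2 ratio of normalized counts (y axis) of CALM2 to CALM3, CAMK2D to CAMK2G and PPP3CA to PPP3CB in each library, labelled with the replicate number, with mean ± SD beside each group. The SD in mutant and WT libraries is 0.60 and 0.73 for the calmodulin pair, 0.32 and 1.56 for the kinase pair, and 0.19 and 0.90 for the calcineurin pair.

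The highest and lowest values of the 8 genes fell mostly in mutant replicate 1 and WT replicates 3 and 4. Each library is 1 pig, so differences between libraries and between pigs cannot be told apart. Mutant replicate 1 was the highest of all 8 libraries for 4 of the 8 genes (CAMK2D, CAMK2G, PPP3CB and RCAN1) and the lowest for CALM2. Over all genes tested it was the highest for 18.6% and the lowest for 14.9%. WT replicate 3 was the lowest for 3 genes of the list and WT replicate 4 for 2. Over all genes these libraries were the lowest for 31.6% and 20.0%. They were the highest for 2 genes and 1 gene of the list, beside 18.9% and 21.3% of all genes. Mutant replicates 2, 3 and 4 were at neither end for any of the 8 genes. Over all genes they were the highest for 4.88%, 4.25% and 7.95%, and the lowest for 3.63%, 4.07% and 6.12%.

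The genes whose log2 values ran most nearly parallel to each member over the 8 libraries were taken from the genes with a mean of at least 50 normalized counts. These likenesses describe 8 libraries that also share depth and mitochondrial share, and they carry no test. CALM3 ran closest to ESRRA, a nuclear receptor gene, and to FITM1, a lipid droplet gene (Pearson's r = 0.985 and Spearman's rho = 0.762 for each). ESRRA had 2408, 5855, 5986 and 6621 normalized counts in mutant replicates 1 to 4 and 5164, 5572, 4031 and 1385 in WT replicates 1 to 4, so it was low in the same library of each group as CALM3. CAMK2D ran closest to RCAN2, another calcineurin regulator gene (Pearson's r = 0.976, Spearman's rho = 0.833). RCAN2 had 3869, 2004, 2021 and 1878 normalized counts in mutant replicates 1 to 4 and 2326, 2092, 2040 and 1062 in WT replicates 1 to 4. The nearest genes were KLHL29 and ADIPOR1 for CALM2, PLD3 and NCK1 for CAMK2G, SLC38A3 and MAST4 for PPP3CA, HINT3 and DMXL1 for PPP3CB, CCDC106 and GCLM for RCAN1, and TMEM248 and KIF13B for NFATC2 (Pearson's r = 0.963 to 0.990).

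Beyond the 8 genes, 7 lists of the surrounding pathways were examined. In limma no gene of any of them was called, where the share over all genes was 0%. Directions and medians of the lists are also those of limma, and some signs differ in the authors' deposited table. Of calmodulins and calmodulin-binding buffers, 6 of 7 were tested, 3 with a log2 difference above 0 and 3 below, and the median was -0.19. Its smallest p belonged to PCP4, a small calmodulin-binding protein gene, which had 3987, 4785, 4032 and 3398 normalized counts in mutant replicates 1 to 4 and 6454, 6464, 5736 and 4052 in WT replicates 1 to 4. Of the WT libraries only replicate 4 overlapped with the mutant ones (log2 difference -0.47 ± 0.25 (SE); limma adjusted p = 0.414; exact two-sided permutation p = 0.0571). NRGN, the neurogranin gene, was low, at 18.9 to 63.0 normalized counts in mutant and 11.2 to 91.0 in WT libraries.

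Of CaM kinase genes and their inhibitors, 11 of 15 were tested, 8 with a difference above 0 and 3 below, with a median of 0.51, beside 0.12 over all genes. CAMKK1, a kinase that activates other CaM kinases and AMPK, had 458, 207, 243 and 291 normalized counts in mutant replicates 1 to 4 and 266, 79.5, 38.8 and 217 in WT replicates 1 to 4. Mutant and WT libraries overlapped, and the log2 difference was 1.30 ± 0.59 (SE; limma adjusted p = 0.365). The value of WT replicate 3 rests on 8 reads, and the authors' deposited table gives a log2 fold change of 0.97. PPM1E, which encodes a phosphatase that can act on CaM kinases, had a log2 difference of 0.71 ± 0.38 (SE; limma adjusted p = 0.420). CAMK2N1, an endogenous CaMKII inhibitor gene, had 118 to 144 normalized counts in mutant and 131 to 281 in WT libraries (log2 difference -0.43 ± 0.31 (SE); limma adjusted p = 0.531). CAMK1 was at 0 reads in WT replicate 3, so its fitted difference depends on the pseudocount and is not given. It is nevertheless counted among the 8 above 0 and in the median, and was at -0.06 in the authors' deposited table.

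Substrates of CaMKII in the myocyte had 9 tested genes, 8 with a difference above 0 and 1 below, with a median of 0.33. The authors' deposited table calls 1 of the 9, RYR2, higher, beside 168 of 12763 genes (1.32%). RYR2, the calcium release channel of the sarcoplasmic reticulum, had 35666, 13674, 15943 and 18174 normalized counts in mutant replicates 1 to 4 and 5431, 7984, 7301 and 2441 in WT replicates 1 to 4, without overlap. Over all genes tested, 6.17% had every mutant library above every WT library. The limma log2 difference of RYR2 was 1.88 ± 0.44 (SE; adjusted p = 0.202), larger than that of any of the 8 genes. The calcium channel genes CACNA1C and CACNB2 had log2 differences of 0.83 ± 0.29 (SE) and 0.77 ± 0.47 (SE), with overlapping groups.

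Among 17 tested calcineurin subunit and regulator genes, 11 had a difference above 0 and 6 below, with a median of 0.29. The 11 include RCAN3 and AKAP5, which were at 0 reads in WT replicate 3. In 1 gene the groups did not overlap, beside 6.17% of all genes with every mutant library above every WT library. It was AKAP6, which encodes the scaffold mAKAP that holds calcineurin and other signalling enzymes at the nuclear envelope of myocytes. AKAP6 had 1845, 1437, 1154 and 1278 normalized counts in mutant replicates 1 to 4 and 715, 821, 974 and 402 in WT replicates 1 to 4. The log2 difference was 1.02 ± 0.30 (SE; 95% interval 0.34 to 1.70; limma adjusted p = 0.238; exact two-sided permutation p = 0.0286, the smallest possible). The authors' deposited table gives AKAP6 a log2 fold change of 0.98 with an adjusted p of 0.0636. MYOZ1, a calsarcin gene of skeletal muscle, had 0.611 to 37.2 normalized counts in mutant and 14.5 to 381 in WT libraries (log2 difference -2.55 ± 1.22 (SE); limma adjusted p = 0.386). Its lowest values are near the floor, with 1 read in mutant replicate 1 and 3 reads in WT replicate 3. CIB1, a calcium-binding protein gene that anchors calcineurin to the sarcolemma in mice, had a log2 difference of -0.53 ± 0.27 (SE; limma adjusted p = 0.412).

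All 13 NFAT factors and kinases were tested, 9 with a difference above 0 and 4 below, with a median of 0.07. In the authors' deposited table NFATC4 (-0.12), NFAT5 (-0.07), GSK3A (-0.03) and HOMER2 (-0.28) were below 0 instead. No gene of this list turned the other way. NFATC3, described in mice as a mediator of calcineurin-driven hypertrophy, had 382, 304, 376 and 440 normalized counts in mutant replicates 1 to 4 and 223, 270, 300 and 330 in WT replicates 1 to 4. Only WT replicate 4 exceeded a mutant library (log2 difference 0.42 ± 0.24 (SE); limma adjusted p = 0.438; exact two-sided permutation p = 0.0571). GSK3B and DYRK2, whose kinases phosphorylate NFAT and favour its export from the nucleus, had log2 differences of 0.40 ± 0.27 (SE) and 0.49 ± 0.42 (SE). WT replicate 4 was the lowest of all 8 libraries for GSK3B (454 normalized counts) and for DYRK2 (336 normalized counts).

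The nuclear arm that CaMKII acts on is formed by MEF2 factors and class IIa histone deacetylases, which repress MEF2 until they are phosphorylated. Of 11 tested genes 7 had a difference above 0 and 4 below, with a median of 0.15. In the authors' deposited table MEF2B (-0.82) and PRKD1 (-0.095) were below 0 instead, and no gene of this list turned the other way. MEF2C, a myocyte transcription factor gene, had 1317, 1075, 1094 and 1128 normalized counts in mutant replicates 1 to 4 and 777, 777, 1032 and 409 in WT replicates 1 to 4, without overlap (log2 difference 0.69 ± 0.29 (SE); limma adjusted p = 0.329). Over all genes tested, 6.17% had every mutant library above every WT library. HDAC7 had 828, 903, 644 and 710 normalized counts in mutant replicates 1 to 4 and 959, 1209, 1221 and 1876 in WT replicates 1 to 4, the opposite order and also without overlap (log2 difference -0.74 ± 0.25 (SE); limma adjusted p = 0.279), beside 5.22% of all genes with every mutant library below every WT library. HDAC9 had a log2 difference of 1.39 ± 0.63 (SE) and overlapping groups. Its lowest value, in WT replicate 3, rests on 7 reads, and the authors' deposited table gives a log2 fold change of 1.05.

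Hypertrophy genes that respond to calcineurin had 9 tested members, 5 with a difference above 0 and 4 below, with a median of 0.03. Their differences had no common sign. MYH7, the gene of β-myosin heavy chain, had a log2 difference of 1.01 ± 0.33 (SE; limma adjusted p = 0.262) and was higher in every mutant library than in any WT library. The authors' deposited table calls it higher, 1 of the 9 tested genes, beside 168 of 12763 genes (1.32%). TRPC6, a cation channel gene that is a target of NFAT, had 61.7, 82.8, 85.1 and 56.9 normalized counts in mutant replicates 1 to 4 and 100, 124, 155 and 281 in WT replicates 1 to 4. These groups did not overlap either (log2 difference -1.10 ± 0.41 (SE); limma adjusted p = 0.302). Over all genes tested, 11.4% had groups without overlap in either direction. ACTA1, the skeletal actin gene of the fetal programme, had 62046 to 156020 normalized counts in mutant and 6864 to 170460 in WT libraries (log2 difference 1.85 ± 0.83 (SE); limma adjusted p = 0.363).

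**Figure D5:**
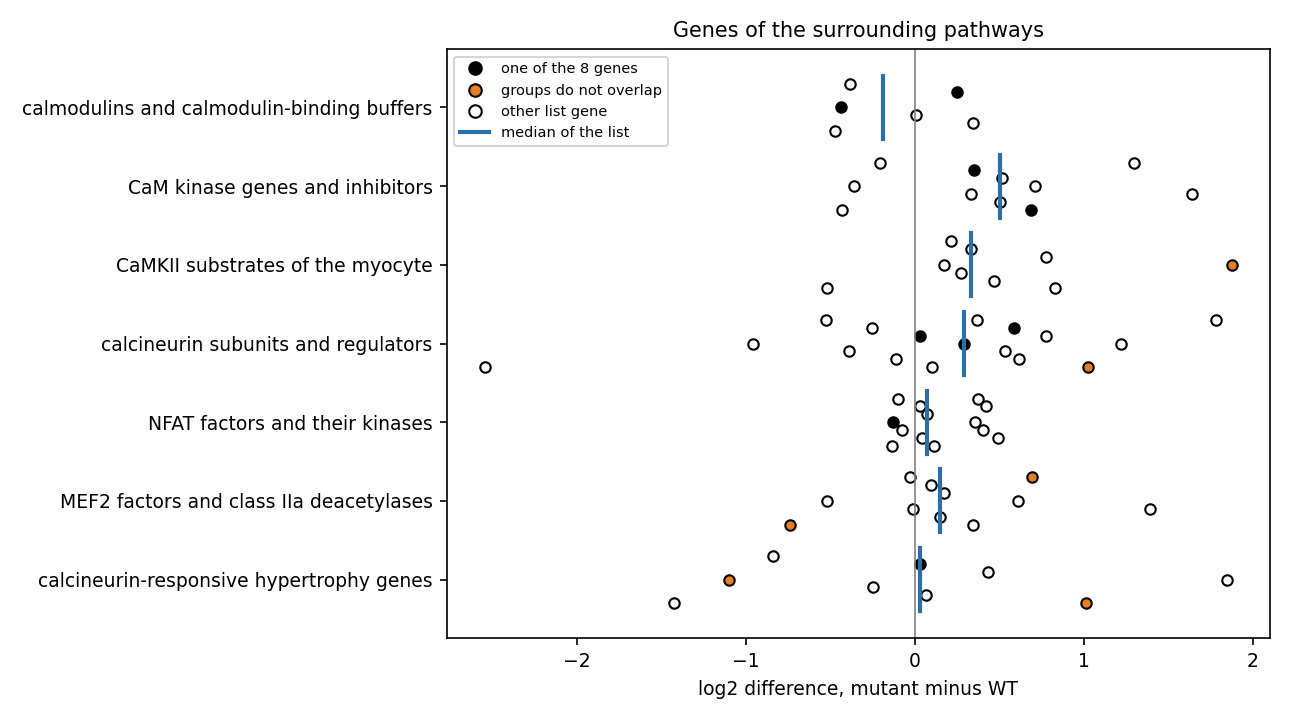
Log2 difference, mutant minus WT (x axis), of every tested gene in the 7 pathway lists (rows), with the 8 genes filled black, genes whose groups do not overlap in orange and each list's median as a blue line. List medians lie between -0.19 and 0.51, and the orange points are RYR2, AKAP6, MEF2C, HDAC7, MYH7 and TRPC6.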

How the data were processed

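Polyadenylated RNA of left ventricles was sequenced after random-primed cDNA synthesis, per the labels' protocols. The authors deposited 1 table with a signal per gene and library, the normalized count, with the results of their comparison (mean, log2 fold change, Wald score, p-value, both raw and adjusted), as named per the file headers. The submitters' processing notes name DESeq2 without a version and GRCh38, a human build, for these pig samples. Aligner, counting tool, annotation and use of strand were not given in the sources used here. Hence no coordinates are printed and reads of antisense partners cannot be told apart. Of 14720 rows, 2 named for annotation sources (0.392% to 0.853% of a library's reads) were left out, and 14504 of the other 14718 matched a pig symbol.

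Divided by the smallest value above 0 in its column, each value came out whole (100%, within 1e-06 reads), which gave reads and depth (mutant 18.0 ± 2.97 M, WT 19.7 ± 2.13 M; SD, n = 4 each). Genes reaching a normalized count of 10 in 4 or more libraries were fitted on log2(normalized count + 1) with limma 3.58.1 (trended robust prior) in R 4.3.3, adjusted over all genes and called at adjusted p under 0.05. On this scale the added 1 shrinks changes between low values, but a library at 0 reads can also enlarge or turn a difference. AKAP5, at 0 reads in WT replicate 3, had a log2 difference of 1.22 in limma against 0.21 in the authors' deposited table. The script was tested on simulated data. Alternatives were edgeR 4.0.16 and DESeq2 1.42.0 on recovered reads, other scalings, pseudocounts and filters, and leaving out libraries. Array quality weights were added after seeing the data. Members and lists were chosen with earlier results of these data known. Named genes are the 8 members, KCNH2, the 3 genes of each pathway list with the smallest p, further genes of the calmodulin, kinase, calcineurin and NFAT lists, and the 2 genes most like each member. Single marker genes (such as MYL2, ACTC1, DCN and CD4) were named after their values were seen. Not every gene chosen this way is reported here, and no sequence is printed.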

Additional observations from a re-analysis of the deposited data

Results flagged for a closer look

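Mutant replicate 1 stood far from the other 3 mutant libraries in 5 of the 8 genes. Its normalized counts were 1681 for CALM3 against 4390 to 4744 in the other mutant libraries, 12083 for CAMK2D against 5071 to 6219, 962 for CAMK2G against 257 to 322, 1856 for PPP3CB against 1133 to 1235, and 1313 for RCAN1 against 416 to 462. It also stood apart in the log2 ratio of CALM2 to CALM3 (1.10 against -0.16 to -0.03), in the score of calmodulins and calmodulin-binding buffers (-0.34 against 0.01 to 0.07) and in that of CaM kinase genes and inhibitors (0.78 against -0.00047 to 0.12). Over all 11660 genes the same library stood apart on the high side in 6.63% and on the low side in 2.39%, compared with 0.111% to 1.21% on either side for mutant replicates 2 to 4.

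WT replicate 3 stood apart in NFATC2, at 208 normalized counts against 14.7 to 44.9 in the other WT libraries. It did so too in the score of CaM kinase genes and inhibitors (-0.84 against -0.09 to 0.03) and in that of calcineurin subunits and regulators (-0.90 against 0.17 to 0.24). This library had 2.54 M reads of nuclear genes. Its share of genes standing apart was 2.36% on the high and 0.875% on the low side. A library stood apart where its gap to the nearest value, divided by the range of its group, passed 0.829 (Dixon). Chance alone marks about 1 in 20 such groups of 4, counting any library and either side. That rate is therefore not the level to set beside the share of 1 library on 1 side.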

How the results depend on the processing

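Under none of the alternatives run, 20 in number, was any of the 8 genes called, and the smallest adjusted p among them was 0.279 (array quality weights). With 1 library left out, the log2 differences ranged from -0.64 to -0.29 for CALM2, -0.23 to 0.61 for CALM3, 0.07 to 0.49 for CAMK2D, 0.26 to 1.18 for CAMK2G, 0.10 to 0.65 for PPP3CA, 0.32 to 0.72 for PPP3CB, -0.52 to 0.35 for RCAN1 and -0.63 to 0.61 for NFATC2. The ratio differences ranged from -0.99 to -0.41 (CALM2 to CALM3), -1.07 to 0.15 (CAMK2D to CAMK2G) and -0.62 to 0.05 (PPP3CA to PPP3CB). Signs turned for RCAN1 in edgeR (-0.056), DESeq2 (-0.053) and after quantile rescaling (-0.030). Without WT replicates 3 and 4 together they turned for CALM3 (-0.43), RCAN1 (-0.31), NFATC2 (1.01) and the PPP3CA to PPP3CB ratio (0.42, against -0.30). With array quality weights they turned for CAMK2D (-0.061), RCAN1 (-0.64) and NFATC2 (0.77). NFATC2 was -0.74 in edgeR and -0.77 in DESeq2, against -0.13 in limma. The cause was not tested. Without mutant replicate 4, the pig labelled with KCNH3, none of the 8 differences turned sign. Over all genes, calls numbered 0 to 3 with 1 library left out (3 without WT replicate 4, 1 without WT replicate 1), 3 after quantile rescaling, 12 without WT replicates 3 and 4, 92 with array quality weights, 582 in DESeq2 and 0 in edgeR (1753 at an unadjusted p under 0.05). The median over all genes was 0.12 in limma, 0.20 when scaled to reads outside the mitochondrial genes, -0.02 in edgeR and -0.06 in DESeq2. At a minimum of 100 normalized counts NFATC2 was not tested. No paired analysis was possible because each pig has a number of its own and the groups share none. Depth limits NFATC2 and all genes in WT replicate 3.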
